A study of Mus musculus with 4 samples.

Results

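The Zeb1 peaks described here belong to genes to which many peaks were assigned in mouse embryonic stem cells (mESC). They were chosen by the number of peaks per gene symbol in the deposited list of Zeb1 ChIP-seq peaks, and all peaks of genes with 6 or more were taken. This gave 570 of 17435 peaks. They were assigned to 78 of the 12271 genes with a peak, or 0.636% of these genes, and are called member peaks and member genes below. A further 7891 peaks belonged to genes with 2 to 5 peaks, and 8974 genes had 1 peak each. The mESC were of the established line D3, at passages 5 to 8, in GS, a serum-free ground state medium that held PD0325901, an inhibitor of MEK, at 1 μM, CHIR99021, an inhibitor of GSK-3, at 3 μM, and LIF at 20 ng per mL. After cross-linking in 1% formaldehyde, chromatin was precipitated with 8 μg of the anti-Zeb1 antibody H-102 for 3 ChIP libraries, and 1 input library was made without antibody. For each peak the list holds the treatment reads, the input reads and the enrichment of the first over the second, each averaged by the authors. The enrichment was formed after scaling and is not the plain ratio of the listed reads. A Cacna1i peak with 39 treatment reads over 3 input reads, for example, had an enrichment of 25.6. The list has no value per library, so no SD could be given, and it does not give the reads aligned in each library. Before alignment the authors drew the same number of reads at random from every sample. The authors assigned each peak to the gene with the nearest transcription start site (TSS). Member peaks are features of 1 averaged list and share loci, so that they are not replicates, and differences between groups of peaks were not tested. Ranges in parentheses after a share are 95% intervals by Wilson's method, which take in counting error alone.

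Zeb1 is a zinc finger and homeodomain protein that binds E-boxes of the form CACCTG and recruits corepressors, and it is best known for silencing epithelial genes in the epithelial to mesenchymal transition. It also acts in neural, muscle and lymphoid development. LINE-1 elements are retrotransposons that sit in many copies across the mouse genome, and their young families carry promoters of their own at the 5′ end.

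A first set of sequences shows what a peak of such a gene looks like at a motif match outside LINE-1, in genes of different roles. Each window comes from the peak with the highest enrichment of its gene and is centred on the match to the Zeb1 motif nearest to the peak centre that lay outside untranslated sequence. The genes were picked for display after their values were seen. The motif was searched as CNCACCTG, CNTACCTG, TNCACCTG and TNTACCTG on both strands, which exclude each other at a given position and strand, and matches are in capitals. Of all peaks, 76.8% held at least 1 match. A search of the forward strand only found one in 54.4% of all peaks. The sequences are from the RefSeq assembly GRCm38.p6, the build of the list, and a match is a description of the letters only. The window of Gse1 was chr8:120416368-120416487, minus strand. That of Pax2 was chr19:44756683-44756802, plus strand, in intron 1. That of Wnt7b was chr15:85558436-85558555, plus strand, in intron 2. That of Speg was chr1:75389585-75389704, plus strand, in intron 4. That of Cacna1i was chr15:80358728-80358847, minus strand, centred in exon 9.
Gse1: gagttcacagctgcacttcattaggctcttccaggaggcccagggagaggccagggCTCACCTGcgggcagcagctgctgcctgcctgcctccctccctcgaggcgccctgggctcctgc
Pax2: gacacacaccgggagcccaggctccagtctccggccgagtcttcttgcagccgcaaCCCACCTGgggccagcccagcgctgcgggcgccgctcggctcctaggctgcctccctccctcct
Wnt7b: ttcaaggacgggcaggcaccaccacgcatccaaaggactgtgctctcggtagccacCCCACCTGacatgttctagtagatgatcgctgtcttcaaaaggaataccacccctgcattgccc
Speg: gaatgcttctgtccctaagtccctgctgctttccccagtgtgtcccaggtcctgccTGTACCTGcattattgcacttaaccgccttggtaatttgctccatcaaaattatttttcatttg
Cacna1i: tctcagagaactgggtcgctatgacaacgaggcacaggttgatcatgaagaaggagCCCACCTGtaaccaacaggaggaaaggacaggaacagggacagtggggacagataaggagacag

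A second set shows the match that the largest number of member genes shared, which 37 of the 187 member peaks on LINE-1 held. The windows were the 4 with the highest enrichment, 1 per gene, among the peaks with this match, so that their likeness at the match follows from the choice, and all lay in elements of the L1Md_T family. That of Rprl1 was chr6:69035669-69035788, plus strand. That of Cdh8 was chr8:99466705-99466824, minus strand. That of 5730507C01Rik was chr12:19626853-19626972, minus strand, and that of Gm2516 was chr8:51346643-51346762, minus strand. Over the 120 bases, Rprl1 and Gm2516 differed at 2 positions, as did Cdh8 and Gm2516, and Rprl1 and Cdh8 differed at 4. The window of 5730507C01Rik differed from the others at 22 to 24 positions.
Rprl1: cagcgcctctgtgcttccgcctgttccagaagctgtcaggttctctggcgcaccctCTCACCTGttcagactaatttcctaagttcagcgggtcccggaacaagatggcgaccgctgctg
Cdh8: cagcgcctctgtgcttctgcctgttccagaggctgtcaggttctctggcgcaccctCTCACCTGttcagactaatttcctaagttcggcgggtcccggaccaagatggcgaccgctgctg
5730507C01Rik: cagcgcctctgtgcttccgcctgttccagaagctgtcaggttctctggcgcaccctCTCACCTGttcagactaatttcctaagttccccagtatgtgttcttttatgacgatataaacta
Gm2516: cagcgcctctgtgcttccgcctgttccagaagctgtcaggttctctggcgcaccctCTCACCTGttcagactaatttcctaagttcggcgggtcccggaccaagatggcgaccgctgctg

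A last sequence shows the 300 bases with the most matches among member peaks outside LINE-1 that shared at most 50% of their 30-base words with other member peaks. It lay in intron 10 of Ctu2, a gene of tRNA thiolation, at chr8:122480329-122480628, plus strand, and held 11 matches. The whole peak held 20, the highest number of any member peak.
Ctu2: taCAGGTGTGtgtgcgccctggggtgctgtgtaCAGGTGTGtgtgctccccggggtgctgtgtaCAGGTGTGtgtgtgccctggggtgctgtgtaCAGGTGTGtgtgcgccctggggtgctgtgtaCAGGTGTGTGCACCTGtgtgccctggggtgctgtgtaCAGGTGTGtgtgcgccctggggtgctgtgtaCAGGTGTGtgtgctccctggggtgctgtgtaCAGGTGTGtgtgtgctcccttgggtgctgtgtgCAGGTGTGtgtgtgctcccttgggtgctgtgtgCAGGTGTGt

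Of the 78 genes, 41 had exactly 6 peaks, 18 had 7, 9 had 8, 2 had 9 and 2 had 10. The genes with more were Gse1 with 18 peaks, 5730507C01Rik with 17, A330074K22Rik with 15, Rprl1 with 14, Erdr1 with 13 and Dpf1 with 11. By type, 66 of the genes were protein-coding, 10 were non-coding RNAs and 2 were pseudogenes. Non-coding RNAs made up 12.8% of the member genes and 7.66% of all genes with a peak. The 246 peaks of genes just inside the limit and the 485 peaks of the 97 genes just outside it, with 5 peaks, had close values in most measures. Median enrichment was 6.68 with exactly 6 peaks and 6.39 with 5. Within 5 kb of the TSS lay 59 of the 246 peaks and 98 of the 485 peaks (20.2%), and the motif was in 81.3% and 79.6%. LINE-1 held 35.4% of the peaks of genes with exactly 6 and 25.6% of those with 5.

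**Figure D1:**
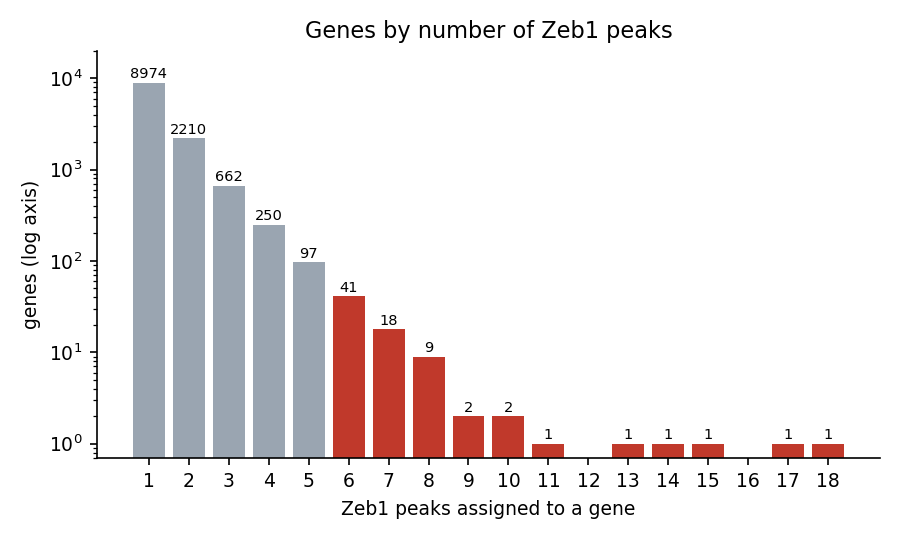
Number of genes (log axis) by the number of Zeb1 peaks assigned to them, for all 12271 genes with a peak. Red bars are the 78 member genes with 6 or more peaks and grey bars the others, from 8974 genes with 1 peak to Gse1 alone with 18.

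Member peaks mostly lay far from the TSS of their gene. Within 5 kb of it were 116 of the 570 peaks, or 20.4% (17.2 to 23.8%), against 62.7% (62.0 to 63.5%) of the other 16865 peaks. The median distance was 55362 bp for member peaks, with quartiles of 9641.5 and 291459 bp, and 633 bp for the others, with quartiles of 176 and 16911 bp. Beyond 100 kb lay 226 member peaks, or 39.6% (35.7 to 43.7%), against 8.98% of the others. The rule itself bears on this measure, since a gene with many peaks has room for only some of them close to its TSS. A peak within 5 kb was still found in 66 of the 78 genes. The other 12 had none, and these were 5730507C01Rik, Rprl1, Mir6350, Cdh20, 4930515G16Rik, G6pd2, Lrrc4c, Gm2516, Cox7c, Aadat, 1700019M22Rik and 4930474H20Rik. Member peaks lay on either side of the TSS, 309 downstream and 261 upstream.

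The median enrichment of member peaks was 6.7, with quartiles of 4.7 and 9.08, against 6.5, with quartiles of 4.92 and 8.5. Enrichment of at least 10 was found in 117 member peaks, or 20.5% (17.41 to 24.03%), and in 14.5% (14.02 to 15.08%) of the others. By the grouping of genes on LINE-1 peaks given below, it was 13.9% (10.5 to 18.3%) in genes without such peaks. In genes with some it was 31.4% (22.6 to 41.8%), and in genes with mostly LINE-1 peaks 26.4% (20.5 to 33.2%). Enrichment comes from the same contrast that gave the peaks, so these values are a description. Treatment reads had a median of 42.2 in member peaks and 47.5 in the others, and input reads a median of 14.5 and 16. The spread within a gene was wide. The peak with the highest enrichment had a median of 3.79 times that of the lowest in the same gene, from 1.54 times in Mir1963 to 17.3 times in 4930515G16Rik. In the 66 genes with peaks on both sides of the 5 kb limit, 116 of 474 peaks, or 24.5%, lay within 5 kb, and the highest enrichment was within it in 20 genes and beyond it in 46. The peak with the most treatment reads was within 5 kb in 33 of these genes and beyond it in 33. These numbers were 26 and 15 in genes without LINE-1 peaks, 4 and 6 in those with some and 3 and 12 in those with most.

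The authors' detailed annotation placed 187 member peaks on a LINE-1 element, or 32.8% (29.1 to 36.8%), against 13.6% (13.1 to 14.1%) of the other peaks. When only peaks with an enrichment of at least 5 were counted, the share was 21.1% of 204 member peaks. The share of other peaks under this limit was not computed, so 21.1% cannot be set against 13.6%. LINE-1 peaks lay almost all beyond 5 kb, as did most member peaks. Among peaks beyond 5 kb, a comparison made after the values were seen, the shares were 41.0% (36.5 to 45.6%) and 36.0% (34.9 to 37.2%). The motif was in 459 member peaks, or 80.5% (77.1 to 83.6%), and in 76.7% (76.0 to 77.3%) of the others. In the central 500 bp alone it was in 37.4% (33.5 to 41.4%) and 34.5% (33.8 to 35.3%). CpG islands held 68 member peaks, or 11.9%, against 14.7% of the others. Long peaks were more frequent among member peaks, with 8.77% of them at 4 kb or more against 4.91%, while the median length was 1775 bp against 1850 bp. The LINE-1 share divided the member genes, and the following grouping was made after the values were seen. In 41 genes with 302 peaks no peak was on LINE-1, in 26 genes with 182 peaks most were, and in 11 genes with 86 peaks some were, but not most.

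Most genes without a LINE-1 peak had their peaks close together. From first to last peak the 41 genes of this kind spanned a median of 72350 bp, against 747150 bp in the genes with some LINE-1 peaks and 999075 bp in those with most. The median over genes of the typical gap between neighbouring peaks was 5375 bp without LINE-1 peaks and 128850 bp with mostly LINE-1 peaks. Peaks covered a median of 25.5% of the stretch in the first group and 1.01% in the last. Peaks were also counted per Mb of a gene's territory, the bases closer to its TSSs than to any other gene's. This value contains the number of peaks that chose the genes, so it is a description. Its median was 34.8 per Mb in the member genes, 31.8 in genes with 2 to 5 peaks and 20.8 in genes with 1. Among the member genes it was 96.3 without LINE-1 peaks and 6.65 with mostly LINE-1 peaks, where the genome as a whole held 6.40 peaks per Mb.

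**Figure D2:**
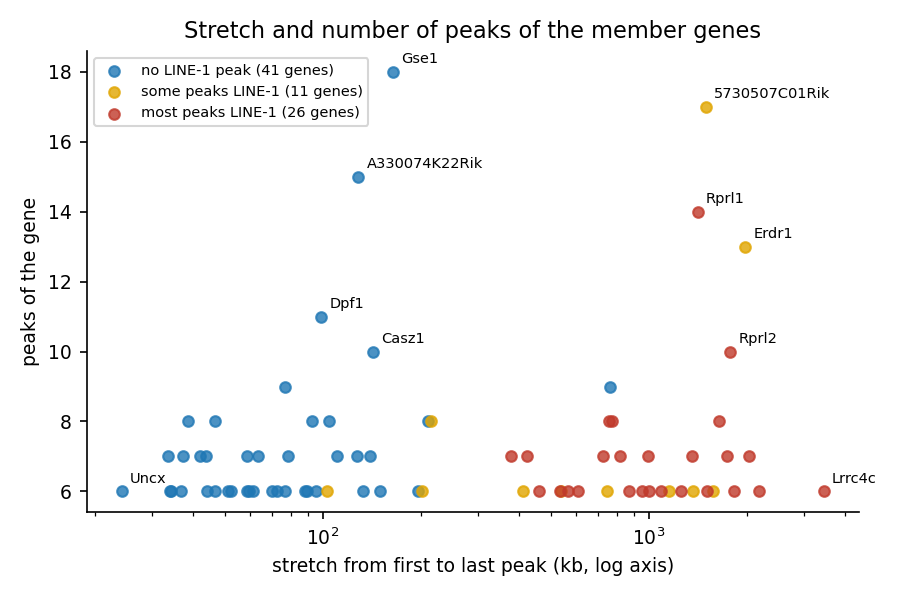
Each point is 1 of the 78 member genes, with the stretch from its first to its last peak in kb (log axis) against its number of peaks, coloured by its LINE-1 peaks. Genes without LINE-1 peaks have a median stretch of 72350 bp and genes with mostly LINE-1 peaks one of 999075 bp, and the groups overlap, as 1700030C10Rik without LINE-1 peaks spans 760150 bp.

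Over all member genes, 492 pairs of neighbouring peaks had a median gap of 14900 bp, with quartiles of 3825 and 89112.5 bp, against 15100 bp in genes with 2 to 5 peaks, with quartiles of 3800 and 62150 bp. Gaps under 10 kb made up 44.1% of these pairs and 42.2% of those in genes with 2 to 5 peaks. In 52 pairs the gap was under 1 kb and in 118 pairs it was over 100 kb. The member genes were 30793 bp long at the median, against 21388 bp for genes with 2 to 5 peaks and 21215 bp for genes with 1. With a limit of 8 peaks the median was 20040 bp, below both. By curated RefSeq genes, 167 member peaks lay in the gene they were assigned to, 74 in another gene and 329 in none. Of the 329, GENCODE gene models, which include longer forms, held 90, and 239 were in neither annotation.

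Of the 21 gene lists looked at, 8 held a member gene, and 21 of the 78 member genes were in a list. The homeobox list had 145 genes with a peak and 5 with 6 or more (3.45%, against 0.636% of all genes), among them Pax2, Lhx5, Onecut3 and Irx1. The list is incomplete, since Uncx, Barhl2 and Lbx1, described below, are not in it. The Runx, Ets and nuclear receptor list had 2 of 52, among them Nr2f2, and axon guidance and synaptic adhesion had 4 of 115, among them Epha7, Lrrc4c and Nlgn1. Vascular and cardiac genes had 1 of 31, Hand2, and cadherins and protocadherins 2 of 67, Cdh20 and Cdh8. Developmental zinc finger factors had 4 of 300, Casz1, Prdm13, Zfp423 and Zfpm1. Ion channels and transmitter receptors had 3 of 183, among them Cacna1i and Kcnh2, and the Wnt pathway had 1 of 59, Wnt7b. No gene reached 6 peaks among 29 pluripotency factors, 39 genes of the epithelial to mesenchymal transition and its epithelial targets, 17 Sox, 38 forkhead and 14 T-box factors. The same was true of the BMP and TGF-beta, FGF, Notch, Hedgehog and retinoic acid pathways, with 55, 47, 25, 14 and 16 genes with a peak. It was also true of the lists of 107 Polycomb and chromatin regulators, 92 collagens, laminins, integrins and proteoglycans and 162 actin regulators. The chromatin list is incomplete as well, since the member genes Gse1, Dpf1 and Bahcc1, described below, are not in it. The share over all genes was 0.636%, so lists of these sizes can lack a gene with 6 or more peaks without differing from it. Mean peaks per gene were 2.21 in T-box, 2.05 in forkhead, 2 in Sox and 1.83 in pluripotency factors. They were 1.95 in the homeobox list and 1.42 in all genes with a peak.

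Pax2, Lhx5 and Onecut3 had peaks at their TSS and further ones around it. Pax2, a factor of kidney, ear and midbrain development, had 8 peaks in 92650 bp. The 2 peaks within 5 kb of the TSS used in the list, which lies inside the curated gene, had enrichments of 9.2 and 9.0. The other 6 reached up to 86169 bp upstream of that TSS with 4.45 to 6.8, and 2 of them, at 10644 and 7219 bp, were still in Pax2, the former over its curated start. Lhx5, a LIM-homeodomain factor of the forebrain and cerebellum, had 7 peaks in 139600 bp. At Lhx5 the highest enrichment, 8.2, was 73561 bp upstream, and the peak at the TSS had 4.1 with 74.9 treatment reads. Onecut3, a cut-homeodomain factor, had 7 peaks in 43750 bp, with the highest enrichment of 12.8 at the peak over its TSS. Each of these 3 genes was without LINE-1 peaks. Irx1, an Iroquois factor, had all 6 peaks downstream of its TSS, 2 of them within 5 kb and 3 of the other 4 on LINE-1. Outside the lists, and named after their values were seen, Uncx, a homeodomain factor of the somites, Barhl2 and Lbx1 had 6, 7 and 6 peaks, with no LINE-1 peak. The 6 peaks of Uncx lay in 24200 bp, the shortest stretch of any member gene, and covered 71.1% of it. Their enrichment was between 6.2 and 15.5, and the highest was 302 bp downstream of the TSS.

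Casz1, a zinc finger factor of heart and vessel development, had 10 peaks in 142600 bp, and all 10 lay within the gene. Its peak at the TSS had the most treatment reads, 155, with an enrichment of 7.54, while the highest enrichment, 10.4, was 7733 bp downstream. A Casz1 peak 132908 bp downstream held 8 motif matches with an enrichment of 8.88. Zfp423, a factor with many zinc fingers that acts in cerebellar and fat cell development, had 6 peaks in 195950 bp, 4 of them within the gene. The Zfp423 peak at the TSS had 275 treatment reads and an enrichment of 9.23, the highest of the 6 in both. Prdm13, a factor of spinal cord and retinal neurons, combined 3 peaks in or next to the gene with 4 LINE-1 peaks up to 373188 bp downstream. Its highest enrichment, 15.5, lay 6938 bp downstream of the TSS outside LINE-1, and its highest LINE-1 value was 12.4. Zfpm1, a cofactor of GATA proteins, had 6 peaks with enrichments from 5.62 to 10.5, the highest 909 bp downstream of the TSS. By curated RefSeq genes, 3 of these 6 lay in Zfpm1 and 3 in Zfp469. Hand2, a basic helix-loop-helix factor of heart and limb, had 6 peaks in 58500 bp, all downstream of its TSS. The one at the TSS of Hand2 had the highest enrichment, 9.76, and the others had 3.9 to 7.05. Of the 6, 1 lay in Hand2, 3 in Hdnr and 2 in no curated RefSeq gene.

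Among nuclear receptors, Nr2f2, which encodes the orphan receptor COUP-TFII, had 6 peaks spread over 747150 bp. The one 3104 bp upstream of its TSS had an enrichment of 15.4 and the 5 others had 4.59 to 10.95. At Nr2f2, 2 of the 6 peaks were on LINE-1. By curated RefSeq genes, none of the 6 lay in Nr2f2, 3 lay in another gene and 3 in no gene.

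Wnt7b, a Wnt ligand, was the only one of the 59 genes with a peak in the Wnt pathway list to have 6 or more. Beyond those at its promoter it had 2 peaks in the gene, 13445 and 19720 bp downstream of a TSS, and 3 upstream, at 33554, 43729 and 52954 bp from a TSS. The list took these distances to more than 1 TSS of the gene, as it did in 16 of the 78 member genes. The peak at 19720 bp, whose window is printed above, had the highest enrichment of the 7, with 9.2 and 58.5 treatment reads. The 3 upstream peaks had 4.9 to 7.3. The neighbouring gene Mirlet7bhg, which hosts let-7 microRNAs, had 7 peaks of its own, so that 14 peaks followed each other in 146800 bp. Cxxc5, a CXXC zinc finger protein that dampens Wnt signalling, had 9 peaks in 76750 bp with enrichments of 3.55 to 8.75. The farthest, 59157 bp downstream of its TSS, had more treatment reads (128) than the peak over the TSS (114).

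The ion channel genes Cacna1i and Kcnh2 carried most of their peaks inside the gene. Cacna1i, a T-type calcium channel, had 7 peaks and all were within its 111055 bp. The peak in the window printed above had the highest enrichment, 25.6, but only 39 treatment reads over 3 input reads. A Cacna1i peak 84837 bp downstream had 15.3, the last, 108212 bp downstream, had 14.5, and the peak at the TSS had 8.58. Kcnh2, a potassium channel of the heart, had 6 peaks in 34200 bp, 5 of them within 5 kb of a TSS. Their enrichments were between 5.19 and 12.3, with the highest 971 bp upstream.

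Some adhesion and guidance genes had LINE-1 peaks far from the gene, while Bai2 and Lphn1, adhesion receptors outside the lists used, had none on LINE-1. Epha7, an ephrin receptor, had 2 peaks at its TSS, with enrichments of 5.6 and 13.05, and 4 LINE-1 peaks upstream. One of the latter, 351456 bp upstream, had the highest enrichment of all member peaks, 79.3, with 36.7 treatment reads over 1 input read. Lrrc4c, a netrin-G ligand at synapses, had 6 peaks over 3436600 bp, the longest stretch, and all 6 were on LINE-1. Of the cadherins, Cdh20 had 7 peaks over 2027800 bp, 5 of them on LINE-1 and none within 5 kb of the TSS. Cdh8 had 1 peak 446 bp downstream of its TSS with an enrichment of 10.5. The LINE-1 peak of Cdh8 printed above, 50279 bp upstream, had 188 treatment reads, the most of any LINE-1 member peak, and an enrichment of 22.3. Nlgn1, a neuroligin, had 1 peak at its TSS and 5 on LINE-1.

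Several genes of other roles had their peaks in short stretches. Plec, which encodes the linker protein plectin, had 7 peaks that covered 65.7% of 63550 bp. Its peak at 18185 bp downstream of the assigned TSS was the longest member peak, with 13750 bp, 477 treatment reads, the most of any member peak, an enrichment of 11.4 and 16 motif matches. Bahcc1, a chromatin protein with a BAH domain, had 6 peaks of 2400 to 10000 bp. The longest had 244 treatment reads, and the highest enrichment, 14.3, was 27728 bp downstream of the TSS. Speg, a kinase of striated muscle, had 6 of its 7 peaks within 5 kb of a TSS, the highest share of the member genes, with distances taken to several TSSs of the gene. Of these, the peak whose window is printed above had an enrichment of 22.3 and 108.4 treatment reads, and the other 6 had 4.85 to 11.6. Bai2, named Adgrb2 in the reference, an adhesion receptor of neurons, had 8 peaks in 38650 bp with enrichments of 4.7 to 12.4.

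**Figure D3:**
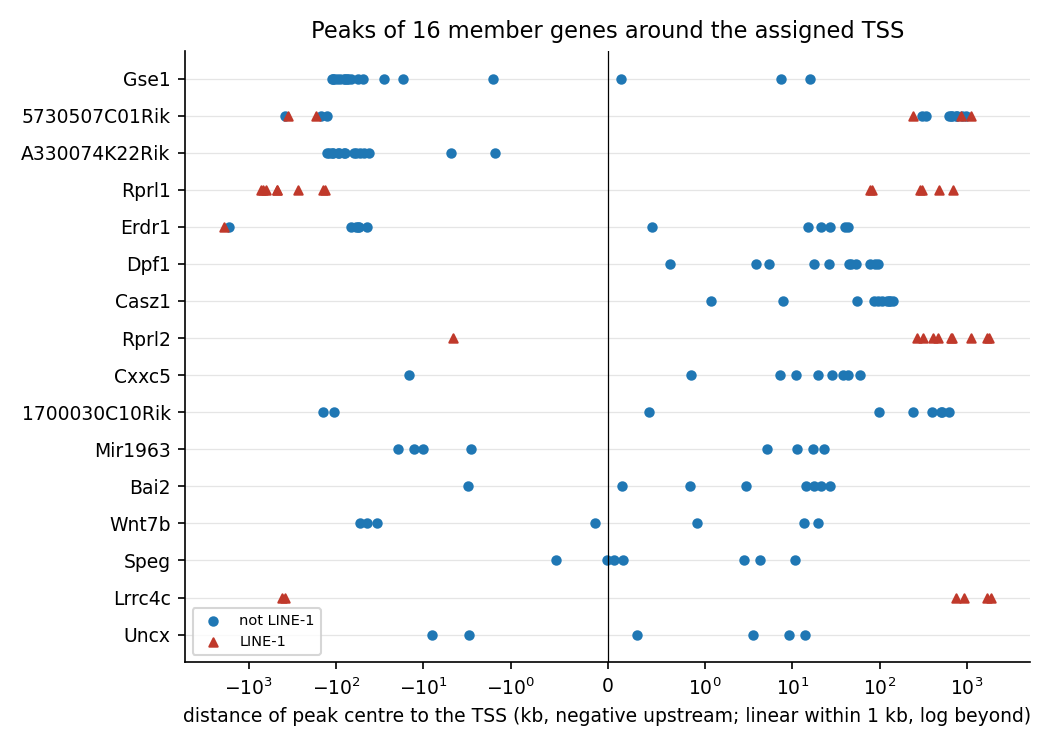
Peaks of 16 member genes by the distance of their centre to the TSS they were assigned to (kb, negative upstream, linear within 1 kb and log beyond), with circles for peaks outside LINE-1 and triangles for LINE-1 peaks. Casz1 and Dpf1 have all peaks downstream, A330074K22Rik has all upstream, and Rprl1 and Lrrc4c have only LINE-1 peaks, none closer than 77249 bp.

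The largest number of peaks stood around Gse1, a nuclear protein found with histone deacetylases. Gse1 had 18 peaks in 164100 bp, of which 15 lay upstream of the curated gene, up to 111641 bp from the TSS. All 18 held the motif, with 59 matches together. Enrichments of the 18 were between 2.5 and 13, and the highest was 72016 bp upstream, in the window printed above. The peak with the most reads, 209, lay 141 bp downstream of another TSS of the gene, with an enrichment of 9.2. The next genes on both sides were members as well. A330074K22Rik, a non-coding RNA on the opposite strand, had 15 peaks, all upstream of its TSS, and Gins2, a subunit of the replication complex GINS, had 6. By curated RefSeq genes, 3 of the 6 Gins2 peaks lay in Gse1 and 1 in Gins2. Together the 3 genes had 39 peaks in 381850 bp of chr8, and 42 peaks of the list lay in that stretch. In the GENCODE annotation a longer Gse1 gene, 120228456 to 120581390 on chr8, held all 15 peaks of A330074K22Rik and the 15 upstream peaks of Gse1. Another GENCODE gene, Gm20388, held these 15 and 15 peaks as well. The peaks assigned to the RNA are thus peaks in gene models of Gse1 and of Gm20388 by that annotation. The strongest of them was 1520 bp upstream of the TSS of A330074K22Rik, with 120.0 treatment reads and an enrichment of 20.5, and it held no motif match. This peak, chr8:120228301-120231200, also took in the start coordinate of the longer GENCODE Gse1 gene, 120228456.

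Joined at distances under 200 kb, the 78 genes formed 69 loci, and 8 loci with more than 1 gene held 17 genes and 147 peaks. Apart from the Gse1 and Wnt7b loci these included Hpcal1 with 5730507C01Rik, Mir1963 with Dpf1, Slc39a10 with Mir6350, Ier2 with Nfix and Zfpm1 with Ctu2. Chr8 held 116 member peaks of 15 genes, or 20.4% of the member peaks (17.2 to 23.8%), against 7.59% of all peaks. In several loci the symbol in the list was not the gene that held the peaks. Dpf1, a neuronal subunit of the BAF chromatin remodelling complex, had 11 peaks, and 8 of them lay in Sipa1l3. All 8 peaks of the microRNA gene Mir1963 lay in Ryr1, the calcium release channel of skeletal muscle, with enrichments of 4.86 to 7.5. Of the 8 peaks of the immediate early gene Ier2, 7 lay in the calcium channel gene Cacna1a. The 7 peaks of Tmem115, a Golgi protein, spanned 33500 bp, and 6 of them lay in Cacna2d2, a calcium channel subunit. Of the 6 peaks of Pitpnb, 5 lay in Ttc28. The 6 peaks of Ctu2 spanned 34000 bp, and 4 of them lay in Piezo1, a mechanosensitive channel, and 1 in both genes. Ryr1, Cacna1a, Cacna2d2 and Piezo1 were named after the values were seen.

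The 26 genes with mostly LINE-1 peaks included Rprl1, Rprl2, Zc3h15, Mir6350, Ppp6c, Prdm13, Cdh20, 4930515G16Rik, March1, G6pd2, Tsn, Brinp1, 2610316D01Rik, Lrrc4c, Slc39a10, St6gal2, Gm2516, Cox7c, Epha7, Aadat, Fam181b, Nlgn1, Tmem47, 1700019M22Rik and 4930474H20Rik. In 9 of them every peak was on LINE-1, which were Rprl1, Rprl2, Mir6350, G6pd2, Lrrc4c, Cox7c, Aadat, 1700019M22Rik and 4930474H20Rik. Rprl1 and Rprl2, which encode RNAs like that of ribonuclease P, are 238 bp long each. The 14 peaks of Rprl1 lay 77249 to 726101 bp from its TSS, on both sides, with enrichments of 2.69 to 22.55. The 10 peaks of Rprl2 spanned 1778900 bp, with 2.1 to 15.35. The 6 peaks of Gm2516 spanned 2179500 bp, the second longest stretch. Tmem47, a membrane protein of cell junctions, had 5 LINE-1 peaks upstream, and one of them had an enrichment of 41.8 with 21.5 treatment reads over 1 input read. The pseudogene 4930515G16Rik had 7 peaks, 6 of them on LINE-1, and its remaining peak had an enrichment of 38.1 with 71 treatment reads. As at Epha7, the highest ratios at Tmem47 stood over few input reads.

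**Figure D4:**
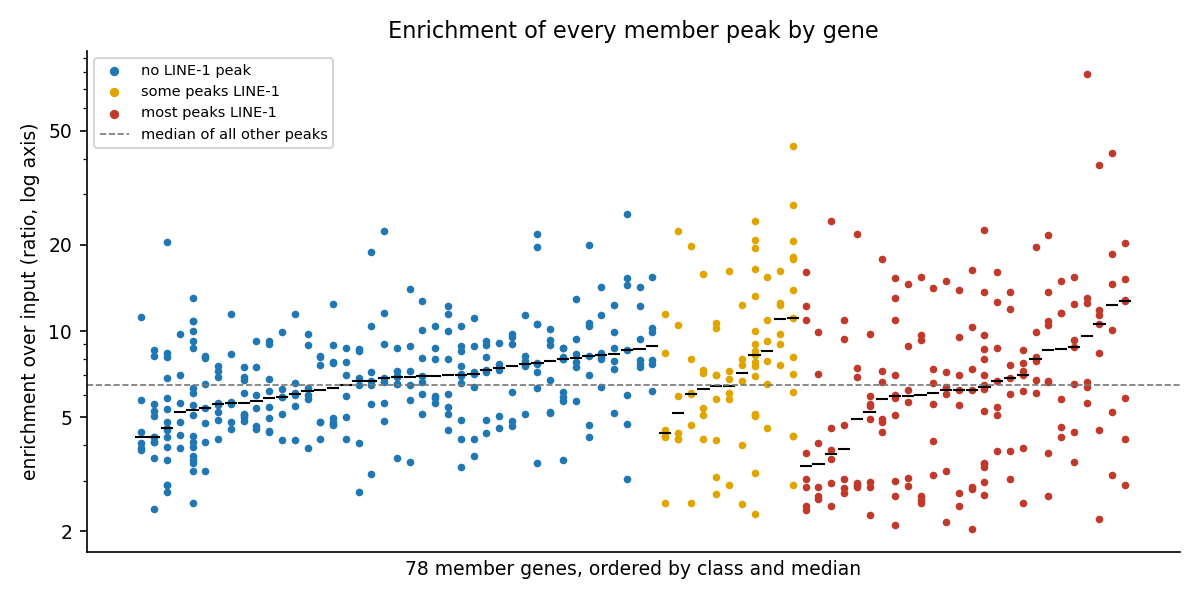
Enrichment over input (ratio, log axis) of all 570 member peaks, in columns of 1 gene each, ordered by LINE-1 class and by the gene's median (black bars). The dashed line is the median of all other peaks, 6.5, and the widest spread is in genes with mostly LINE-1 peaks, up to 79.3 at Epha7.

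Member peaks on LINE-1 and the other member peaks differed in form. LINE-1 peaks had a median length of 1400 bp against 2100 bp, a GC content of 46.1% against 56.1% and a distance to the TSS of 407580 bp against 19967 bp. LINE-1 peaks of the other genes had medians of 1400 bp, 45.2% and 98131.5 bp, and a median enrichment of 5.19. In member peaks on LINE-1 the median enrichment was 6.4, with quartiles of 3.18 and 10.9. In the other member peaks it was 6.85, with quartiles of 5.05 and 8.75. The families were L1Md_T with 107 peaks of 34 genes, L1Md_F2 with 30, L1Md_A with 26, L1Md_F with 8, L1Md_F3 with 7 and L1Md_Gf with 5, and 4 peaks were on other LINE-1 families. The motif share was 80.2% on LINE-1 and 80.7% outside, in peaks of unlike length. In the central 500 bp it was 45.5% (38.5 to 52.6%) on LINE-1 and 33.4% (28.9 to 38.3%) outside. The spellings differed, as 65.7% of the 373 matches on LINE-1 read CNCACCTG, against 40.0% of the 862 matches outside it and 46.2% of all matches in the list.

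The match shared most widely, with 11 bases on either side, was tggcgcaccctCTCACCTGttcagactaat. It was in 37 member peaks of 21 genes, all 37 on LINE-1, and in 444 peaks of the whole list, 434 of them on LINE-1. The list held 2483 LINE-1 peaks in all, 187 of them member peaks. Of 150 LINE-1 member peaks with such a 30-base window, 118 shared one with a peak of another member gene, or 78.7% (71.4 to 84.5%), against 11 of 306 other member peaks, or 3.59% (2.02 to 6.32%). Across whole peaks, a median of 50.3% of the 30-base words of a LINE-1 member peak recurred in another member peak, against 0% outside LINE-1. By their methods the authors kept only reads with a single placement in the genome, and how this acted on reads from such copies was not tested here.

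Peaks outside LINE-1 that shared over 50% of their words numbered 22, and 18 of them fell to 4 genes, with 6 at Erdr1, 5 at 1700030C10Rik, 5 at 5730507C01Rik and 2 at Hpcal1. The latter 3 genes had their peaks on chr12, between 17689601 and 20955950. There, 5730507C01Rik had 17 peaks over 1493200 bp, none closer than 126735 bp to its TSS, with enrichments of 2.3 to 24.2. Only 5 of its peaks were annotated as LINE-1, and 9 held the motif. The non-coding RNA 1700030C10Rik had 9 peaks over 760150 bp, 6 of them with the motif, and enrichments of 3.45 to 21.8. Erdr1, an erythroid differentiation regulator, had 13 peaks on chromosome Y, which held 32 peaks in all. Curated models also placed Erdr1 at 170010526 to 170018797, outside the stretch of these peaks, 88852501 to 90829500. How a further copy of the gene acted on these peaks was not tested. The Erdr1 peaks 40458 and 43333 bp downstream had enrichments of 44.1 and 27.6, and its longest, 6750 bp, had 234 treatment reads. Peaks of these 4 genes were thus counted separately although many held the same stretches of sequence.

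The motif share rose with peak length in member and other peaks alike. In peaks of up to 1500 bp it was 69.9% (63.1 to 75.9%) for member peaks and 65.1% (63.7 to 66.5%) for the others. In peaks over 1500 and up to 2000 bp it was 80.9% (73.6 to 86.5%) and 73.8% (72.6 to 74.9%). Member LINE-1 peaks of that length had 95.8% (86.0 to 98.8%) and other LINE-1 peaks 82.8% (79.5 to 85.7%). LINE-1 peaks of up to 1500 bp had 70.9% (62.2 to 78.4%) and 65.6% (63.19 to 67.96%), and those over 2000 and up to 3000 bp had 94.4% (74.2 to 99.0%) and 91.0% (86.1 to 94.3%). Outside LINE-1 the shares over 1500 and up to 2000 bp were 73.1% and 72.8%. In peaks over 2000 and up to 3000 bp the order was the other way, with 83.5% (76.4 to 88.7%) of member peaks and 84.0% (82.9 to 85.0%) of the others. Above 3000 bp the motif was in 97.9% of member peaks and 94.7% of the others. Of the 268 member peaks outside LINE-1 and beyond 5 kb, 79.5% (74.2 to 83.9%) held the motif, against 79.1% (77.8 to 80.3%) of the 4018 other peaks of this kind.

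**Figure D5:**
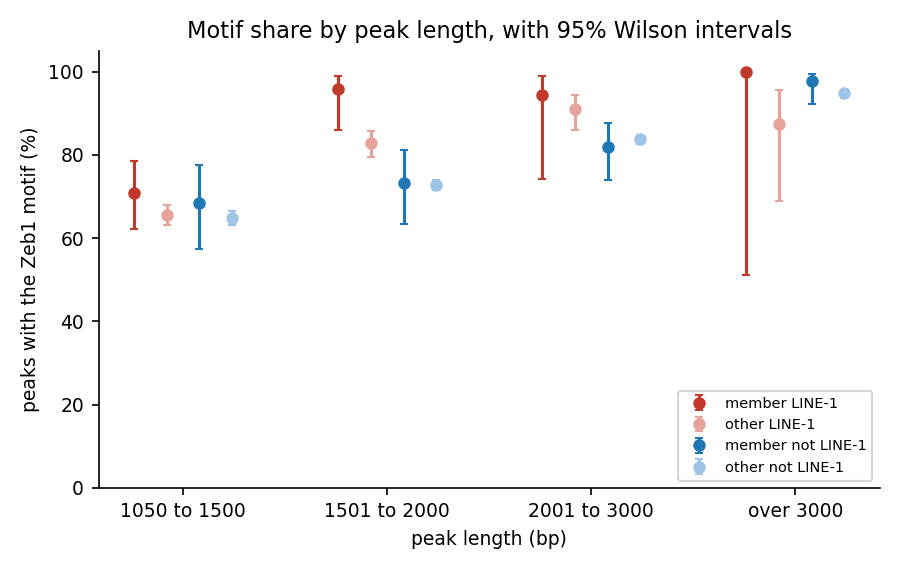
Share of peaks with the Zeb1 motif (%) by peak length (bp), for member and other peaks on and outside LINE-1, with points for the share and bars for 95% Wilson intervals. The shares outside LINE-1 rise from 68.4% in member peaks of up to 1500 bp to 97.8% above 3000 bp, next to 64.8% and 94.8% in the other peaks.

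The remaining member genes without a LINE-1 peak had values in the range of those described. They included 1700018B08Rik, Tfap2a, Tnrc18, Amn, Nfix, Pde4a, Lphn1, Nfatc2, Trim11 and Tcf20. Tfap2a, a factor of neural crest and epidermis named here after its values were seen, had 7 peaks in 41950 bp, 4 of them within 5 kb of a TSS. Nfix, a nuclear factor I protein named likewise, had 6 peaks with enrichments of 3.9 to 9.74. The remaining genes with some LINE-1 peaks included Begain, Dmrta2, Dsel and Stxbp6, next to 5730507C01Rik, Erdr1, Cdh8, Hpcal1, Nr2f2 and Irx1. Dmrta2, a doublesex-related factor of the forebrain and also named after its values were seen, had 4 peaks outside LINE-1 with enrichments of 4 to 12.4, the highest 350 bp upstream of its TSS.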

How the data were processed

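Zeb1 ChIP-seq of mESC in GS was made as 3 ChIP libraries and 1 input library. By the submitters' notes the reads were checked with FastQC 0.11.2, aligned to mm10 with STAR 2.4.2a, cleared of duplicates with Picard 1.136 and annotated with HOMER 4.7. By the paper's methods only reads with a single placement were kept. Peaks were called with PeakRanger against the input, and peaks present in at least 2 ChIP libraries were unified. The deposited reads are a signal. By the paper's methods, the treatment and input reads computed for each sample at a unified peak were averaged, with 1 input library in the series. The deposited enrichment is a ratio, which the authors formed between ChIP and input after scaling to mapped reads. The deposited p-value is 0 in every peak and was not used. Columns named for 1 library numbered 0.

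Peaks were counted per gene symbol, and genes with 6 or more were kept. The members and the gene lists were chosen with earlier results of these data known. Distances are the deposited ones, with positive values downstream of the TSS as found against the reference, the opposite of the table's legend. Genes, TSSs and sequence came from curated RefSeq models of GRCm38.p6, and GENCODE models were used for peaks outside them. Intervals of shares are 95% Wilson intervals, and quartiles are given for the main medians. No test was made. Named genes were the 12 with the most peaks, a limit that cut through the 9 genes tied at 8 peaks. The genes of the 5 most enriched member peaks and of the 5 member peaks richest in treatment reads were added. The 3 with the shortest and the 3 with the longest stretch were added too. The genes with the highest and lowest share near the TSS and those with the highest LINE-1 share (all tied genes are given) were named. So were list genes with values for up to 3 a list, and the genes the study names. Symbols given without values account for other members, some members are not reported here, and the other genes that the text marks were picked with their values in view. The same holds for the values given for Irx1, Zfpm1, Nlgn1, Mirlet7bhg, Gins2, Ier2, Pitpnb and Hpcal1 and for the genes that held peaks of another symbol. Reference symbols differ for Bai2 (Adgrb2), Lphn1 (Adgrl1), March1 (Marchf1) and Mirlet7bhg (Lncppara). Counting, gaps and the motif search were checked on simulated data. Alternatives were other limits on peaks per gene, enrichment and distance, merged peaks, other gene models and other motif searches. Expression data were not analysed here. Python 3.11.15, NumPy 2.4.6, pandas 2.3.3, SciPy 1.17.1, pysam 0.24.0 and matplotlib 3.10.9 were used.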

Additional observations from a re-analysis of the deposited data

How the results depend on the processing

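Of 32 alternative values, 16 lay within the 95% interval of the reported share or median or, for counts, within 1.5 times of it, and 16 did not. The interval is Wilson's for shares and is taken from the ranks of the values for medians, so it is not the quartiles. The number of genes was 175 with a limit of 5 peaks and 19 with a limit of 8, and it was 29 with peaks of an enrichment of at least 5 only, 38 with peaks closer than 5 kb merged and 43 with LINE-1 peaks left out. Fewer peaks entered the count in these last 3. It was 60 with peaks closer than 1 kb merged and 99 with peaks counted in or within 5 kb of a reference gene. Member peaks numbered 1055 and 198 with limits of 5 and 8, and 204 with an enrichment of at least 5. The share near the TSS was 11.8% within 1 kb and 25.3% within 10 kb, which follows from the distance used, and 24.5% with an enrichment of at least 5. Median enrichment was 6.14 with a limit of 8 peaks. The LINE-1 share was 21.1% with an enrichment of at least 5 and 27.3% with a limit of 8. The motif share was 56.5% on the forward strand alone and 37.4% in the central 500 bp, where less sequence was searched. For the other moved values the cause was not tested. The median gap stayed within its interval in the alternatives run. So did the median gene length, but at 20040 bp with a limit of 8 peaks it was below the 21388 bp of genes with 2 to 5 peaks, while the main value is above. No paired analysis was possible because the list holds no value per library, and for the same reason no library could be left out.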
